A study of Rattus norvegicus with 15 samples.

Results

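The 4 mRNAs described here, Actb, B2m, Gapdh and Rpl19, are the probes that the panel's own class column lists as housekeeping. They are 4 of 424 probes for rat RNAs; the other 420 are for miRNAs. MicroRNA abundance was counted with the nCounter assay, in which miRNAs are first joined to sequence tags and single molecules are then counted by coloured barcodes, while mRNA probes bind their transcripts directly. The RNA came from adult cardiomyocytes of Sprague Dawley rats, 15 samples in 5 groups of 3 with 1 lane each. Vehicle culture was healthy cardiomyocytes given saline in vitro for 6 h, and DOX culture was the same kind of cells given doxorubicin (DOX), an anthracycline cancer drug that is toxic to the heart, for 6 h. Control hearts were healthy age-matched rats whose cells spent the same time in culture as those of the diseased hearts before RNA extraction, DOX hearts were rats made to develop heart failure by repeated DOX injections, and MI hearts were rats taken 4 weeks after myocardial infarction (MI) by ligation of the left coronary artery. Cells of all 5 groups were plated on laminin for 1 h, so that unattached cells were discarded, and RNA was extracted with TRIzol. The dose of DOX and the age of the animals are not given in the sources used here. The surviving, attached cells are what each group models, and nothing in the labels ties each of a group's 3 samples to its own animal or culture. The p-values therefore measure only the spread between these samples.

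Housekeeping mRNAs are transcripts that most cells make in quantity and that are often used as a fixed reference for other RNAs. Actb encodes beta-actin, a cytoskeletal actin that is plentiful in non-muscle cells, whereas cardiomyocyte sarcomeres are built mainly from alpha-actins. B2m encodes beta-2-microglobulin, the light chain of MHC class I, which interferons induce. Gapdh encodes the glycolytic enzyme glyceraldehyde-3-phosphate dehydrogenase, and Rpl19 encodes a protein of the large ribosomal subunit. In bulk RNA, fewer cells of a type and less RNA per cell cannot be told apart.

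Lane depth was 36977 to 137746 miRNA counts, and the 4 mRNAs together added 1179 to 6148 counts, equal to 3.11% to 6.01% of the lane's miRNA counts. The 6 positive controls, synthetic targets added to each lane, summed to 4229 to 9661 in MI hearts and to 10053 to 24224 in the other 12 lanes. All 60 values of the 4 mRNAs were above the lane background, the mean plus 2 SD of the 8 negative controls. The closest to it were the Actb counts of control hearts at 34, 58 and 56, where the mean negative control was 19.6% to 24.1% of the count. The 3 lanes of DOX culture were read at another stage position than the other 12 lanes, so stage position and this group cannot be told apart. Over the 113 features tested, the chi-square per degree of freedom between 2 samples of a group was 2.15 to 6.50 within vehicle culture and within control hearts. It was 131 to 152 between sample 3 of DOX culture and its partners, 65.4 to 115 between sample 1 of DOX hearts and its partners, and 37.4 to 44.0 between sample 3 of MI hearts and its partners. No pair agreed within counting noise. An earlier look at these data named those 3 samples as least typical, and results are also given without them. As they were picked from the same data for being unlike their partners, leaving them out narrows the spread by the choice itself. The lower p-values and larger shares without them are therefore no independent evidence, and the groups concerned each have a sample fewer.

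Levels are counts per 1000000 miRNA counts (CPM), in which the lane's miRNA sum was multiplied by edgeR's TMM factor, so a level is the mRNA relative to miRNA in the same lane. Tests of CPM are edgeR quasi-likelihood tests across 113 features, 109 miRNAs and the 4 mRNAs, with Benjamini-Hochberg adjustment over all of them and a threshold of 0.05. A comparison of 2 mRNAs' levels within a sample would also reflect their probes, so such ratios are read only for how they differ between groups.

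Actb was the lowest in control hearts, at 935, 921 and 936 CPM (931 ± 8.23, SD, n = 3). The coefficient of variation of these 3 values, 0.884%, was below the counting error of 13.1% to 17.1% that their counts carry. MI hearts held 2997, 2381 and 2641 CPM (2673 ± 309), DOX culture 2919, 2930 and 2019 CPM (2623 ± 522), DOX hearts 1370, 2825 and 1861 CPM (2019 ± 740) and vehicle culture 1731, 1927 and 2341 CPM (2000 ± 312). Every sample of the other 4 groups lay above all control hearts, and those 4 groups overlapped each other, except that vehicle culture lay wholly below MI hearts. In the order MI hearts, DOX culture, DOX hearts, vehicle culture and control hearts, the step from vehicle culture to control hearts passed the test (log2 difference 1.10, SE 0.29, adjusted p = 0.0123). The other 3 steps were 0.03, 0.38 and 0.01, with adjusted p of 0.953, 0.468 and 0.974. Actb differed among the 5 groups (adjusted p = 0.00128).

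B2m followed the same order of group means. Control hearts held 3988, 4766 and 5434 CPM (4729 ± 724), below all 12 other samples. The values were 13796, 8945 and 7764 CPM in MI hearts (10168 ± 3197), 7443, 13464 and 8349 CPM in DOX culture (9752 ± 3246), 6546, 10368 and 8407 CPM in DOX hearts (8440 ± 1911) and 6840, 8043 and 9365 CPM in vehicle culture (8082 ± 1263). The highest values, sample 2 of DOX culture and sample 1 of MI hearts, stood well above their partners. No step between neighbours passed the test. The largest was that from vehicle culture to control hearts, at a log2 difference of 0.77 (SE 0.29, adjusted p = 0.0623). B2m differed among the 5 groups (adjusted p = 0.0225).

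A stretch upstream of B2m is shown because B2m is known for induction by interferons and through NF-kB, and the stretch holds the core letters of both response elements. RefSeq (GRCr8) windows of 250 bases before the gene start were at hand for 3 of the 4 genes, all but Actb. Capitals mark matches on either strand to an interferon element core, GAAA and GAAA with any 2 bases between, and to an NF-kB core, GGGA and CC with any 4 bases between. The stretch lies at chr3:129549162-129549221 on the plus strand, 168 to 109 bases before the start.
B2m: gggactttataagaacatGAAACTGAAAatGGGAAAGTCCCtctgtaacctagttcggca
The interferon core occurred in 3.41% of 33469 rat windows of this length, with 1 match in B2m, 0 in Gapdh and 0 in Rpl19. The NF-kB core occurred in 16.4% of the windows, with 2 overlapping matches in B2m, 2 in Rpl19 and 0 in Gapdh. A match describes the letters only.

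Gapdh, the glycolytic enzyme's mRNA, had group means within a narrow band. It was 20431, 37590 and 39012 CPM in DOX hearts (32345 ± 10342), 29155, 24763 and 40569 CPM in DOX culture (31496 ± 8159) and 23234, 26770 and 33761 CPM in vehicle culture (27922 ± 5357). Control hearts held 25027, 26595 and 31598 CPM (27740 ± 3432) and MI hearts 27379, 17890 and 37469 CPM (27579 ± 9791). All 5 groups overlapped, and the spread within DOX hearts and MI hearts was nearly as wide as that over all lanes. The differences between neighbours in this order were 0.04, 0.17, 0.01 and 0.01 on the log2 scale, with adjusted p of 0.945, 0.646, 0.980 and 0.994. Over the 5 groups Gapdh did not pass the test (adjusted p = 0.906), and without the 3 least typical samples all 4 mRNAs did, where 92.9% of features passed.

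Rpl19, the ribosomal protein's mRNA, was the highest in DOX hearts at 5184, 7227 and 5250 CPM (5887 ± 1161), above all 12 other samples. DOX culture held 3963, 3516 and 3818 CPM (3765 ± 228), control hearts 2475, 3241 and 3561 CPM (3092 ± 558), MI hearts 3425, 1802 and 3435 CPM (2887 ± 940) and vehicle culture 2275, 2518 and 3325 CPM (2706 ± 550). Control hearts, MI hearts and vehicle culture overlapped one another. The step from DOX hearts to DOX culture was a log2 difference of 0.64 (SE 0.29, adjusted p = 0.276), with no overlap, and the other 3 steps were 0.28, 0.11 and 0.09, with adjusted p of 0.517, 0.828 and 0.875. The wider step from vehicle culture to DOX hearts passed the test (log2 difference 1.12, SE 0.29, adjusted p = 0.00615), as did 46.9% of features. Rpl19 differed among the 5 groups (adjusted p = 0.00664). Relative to lane miRNA counts, 3 of the 4 mRNAs, all but Gapdh, thus passed the test over the 5 groups, against 59.3% of the 113 features. The count was 2 without any 1 control heart or without DOX heart 2. Relative to the positive-control sum it was also 2, Actb (adjusted p = 0.000975) and B2m (adjusted p = 0.00575), against 39.8% of features, while Rpl19 (adjusted p = 0.105) and Gapdh (adjusted p = 0.144) did not pass.

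**Figure D1:**
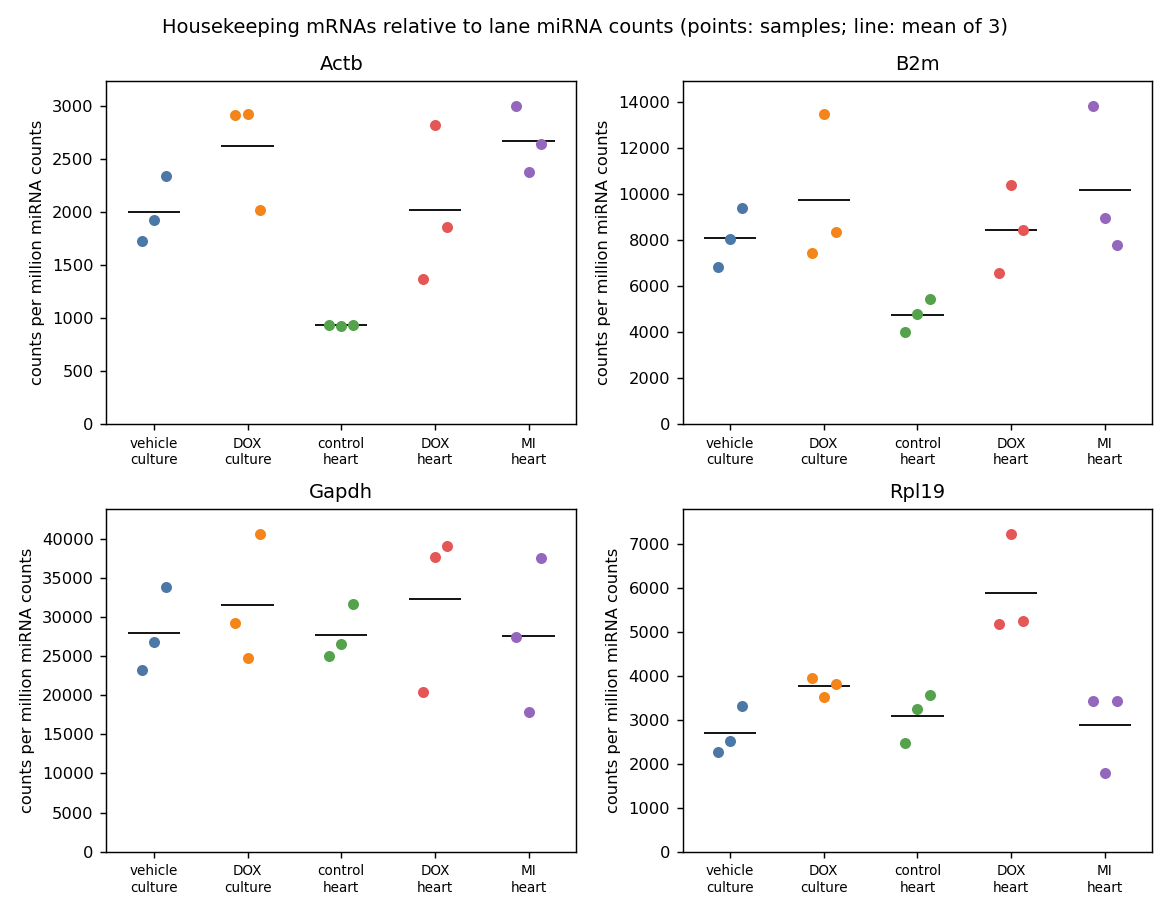
Level of each mRNA (y axis, CPM relative to lane miRNA counts, from 0) in each sample by group (x axis); lines are means of 3 samples. Control hearts lay lowest for Actb and B2m, DOX hearts highest for Rpl19, and the Gapdh groups overlapped.

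The question of the culture experiment was what 6 h of DOX did to the cells. None of the 4 mRNAs passed the test between DOX culture and vehicle culture, where 28.3% of features passed; at an unadjusted p under 0.05 the count was also 0, and DESeq2 called 0. The log2 differences were 0.39 for Actb (95% interval -0.17 to 0.96), 0.27 for B2m (-0.32 to 0.86), 0.17 for Gapdh (-0.46 to 0.80) and 0.48 for Rpl19 (-0.11 to 1.06). The median of the 109 miRNAs was itself 0.27 higher. The interval of each mRNA spans 0 and holds that median. The groups did not overlap for Rpl19, as for 46% of the 113 features. Without the 3 least typical samples, Actb (0.55, adjusted p = 0.00297), B2m (0.37, adjusted p = 0.0483) and Rpl19 (0.47, adjusted p = 0.0106) were higher in DOX culture and Gapdh was not (-0.05, adjusted p = 0.785), where 76.1% of features passed. Those p-values follow a choice of samples made from the same data. Relative to the positive-control sum, all 4 lay between -0.15 and 0.12 with adjusted p of 0.916 to 0.942, and 0.885% of features passed.

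Between DOX hearts and control hearts, the comparison of chronic DOX with age-matched controls, Actb and Rpl19 were higher in DOX hearts, 2.16-fold (log2 1.11, SE 0.30, adjusted p = 0.0287) and 1.90-fold (log2 0.92, SE 0.29, adjusted p = 0.0486). These were 2 of 4, against 7.08% of all features and 6.19% that passed as higher. B2m was 1.78-fold higher in the mean and missed the threshold (log2 0.83, SE 0.29, adjusted p = 0.0699). DESeq2 called B2m (0.92, adjusted p = 0.00972). Gapdh had a log2 difference of 0.22 (95% interval -0.41 to 0.85, adjusted p = 0.661). The groups did not overlap for Actb, B2m and Rpl19, which held for 35.4% of features. The calls of Actb and Rpl19 were both lost without any 1 control heart, without DOX heart 2 and without DOX heart 3 (adjusted p 0.0701 to 0.243); Actb then ranged from 0.79 to 1.33 and Rpl19 from 0.72 to 1.04 over the 6 omissions. Rpl19 also missed the threshold with background subtracted (0.76, adjusted p = 0.0965) and with the miRNA sum not multiplied by TMM (0.87, adjusted p = 0.0555). All 4 passed without the 3 least typical samples, with Actb at 1.34, B2m at 0.98, Gapdh at 0.46 and Rpl19 at 1.00, where 50.4% of features passed.

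Between MI hearts and control hearts, Actb was 2.86-fold higher in MI hearts (log2 1.52, SE 0.30, adjusted p = 0.000411) and B2m 2.15-fold higher (log2 1.10, SE 0.29, adjusted p = 0.00510). The 2 of 4 compare with 38.1% of all features, 16.8% being higher. Gapdh (-0.01, 95% interval -0.64 to 0.62, adjusted p = 0.994) and Rpl19 (-0.11, 95% interval -0.71 to 0.49, adjusted p = 0.828) gave no call in either direction. The MI and control samples did not overlap for Actb and B2m, as for 57.5% of features. Actb passed without any 1 of the 6 samples, at 1.43 to 1.60. B2m was lost without MI heart 1, its highest sample (0.82, adjusted p = 0.0527). The same 2 passed without the 3 least typical samples, at 1.51 and 1.25, where 61.9% of features passed.

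DOX hearts and MI hearts, the pair of failing hearts, differed in Rpl19, which was 2.05-fold higher in DOX hearts (log2 1.03, SE 0.29, adjusted p = 0.00810). It was 1 of 4, against 32.7% of features. The values for the other members were -0.41 for Actb (95% interval -0.98 to 0.17), -0.27 for B2m (-0.86 to 0.32) and 0.23 for Gapdh (-0.40 to 0.86). The Rpl19 samples of these groups did not overlap, as for 38.1% of features. The call was lost without DOX heart 2 (0.86, adjusted p = 0.0528) and without MI heart 2 (0.78, adjusted p = 0.0856), and when probes at background were kept in the fit (0.63, adjusted p = 0.264). Rpl19 was at 1.30 without the 3 least typical samples and Gapdh passed as well, at 0.76, where 65.5% of features passed.

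The control groups were set side by side to see how cells in culture given saline for 6 h differ from those of control hearts. Actb was 2.15-fold higher in vehicle culture (log2 1.10, adjusted p = 0.0123, as above), 1 of 4 against 19.5% of features. B2m was at 0.77 (adjusted p = 0.0623), Gapdh at 0.01 (95% interval -0.62 to 0.64) and Rpl19 at -0.20 (-0.79 to 0.39). Samples did not overlap for Actb and B2m, as for 66.4% of features. The Actb call was lost without vehicle sample 3 (0.97, adjusted p = 0.0566). B2m passed too without the 3 least typical samples, at 0.76, where 49.6% of features passed. The 3 comparisons against control hearts share those 3 samples.

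The response to DOX in hearts less that in culture was 0.72 for Actb, 0.56 for B2m, 0.05 for Gapdh and 0.45 for Rpl19 on the log2 scale, with adjusted p of 0.635, 0.856, 0.952 and 0.856. Relative to lane miRNA counts, none of the 4 passed, against 0.885% of features, and 0 had an unadjusted p under 0.05 or a DESeq2 call. The 95% interval for Actb ran from -0.10 to 1.54. Without the 3 least typical samples Actb was at 0.79 (adjusted p = 0.0301), where 16.8% of features passed.

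The positive controls give a second scale, on which a count is set against synthetic targets and so also follows the amount of RNA in the lane. Per 1000 positive-control counts, Actb was 3.38, 3.16 and 3.20 in control hearts (3.25 ± 0.119) and 29.8, 19.1 and 20.8 in MI hearts (23.3 ± 5.73). B2m was 14.4, 16.3 and 18.6 in control hearts (16.4 ± 2.07) and 137, 71.9 and 61.2 in MI hearts (90.1 ± 41.1). Gapdh was 90.5, 91.2 and 108 in control hearts and 272, 144 and 295 in MI hearts, and Rpl19 was 8.95, 11.1 and 12.2 against 34.1, 14.5 and 27.1. All 4 mRNAs were higher in each MI heart than in any control heart, and the groups did not overlap for 79.6% of features.

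On this scale all 4 passed between MI hearts and control hearts, with log2 differences of 2.84 for Actb, 2.45 for B2m, 1.30 for Gapdh and 1.22 for Rpl19 (adjusted p = 6.53e-05, 0.000428, 0.0212 and 0.0314). The background was 51.3% of features, 50.4% as higher, and the median of the miRNAs was itself 1.26 higher. Gapdh and Rpl19 thus lay close to that median, and Actb and B2m above it. The MI lanes held 7.44 to 9.55 miRNA counts per positive-control count, against 3.41 to 3.68 in control hearts and 2.50 to 7.72 in the other 9 lanes; the part of this in the higher values was not tested.

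Between DOX hearts and control hearts, Actb passed relative to the positive controls (1.44, adjusted p = 0.0299; 5.31% of features) and Rpl19 did not (1.33, adjusted p = 0.0933). Between DOX hearts and MI hearts, Actb (-1.40, adjusted p = 0.0154) and B2m (-1.27, adjusted p = 0.0375) were lower in DOX hearts, 2 of 4 against 21.2% of features, while Rpl19 was at 0.10 (adjusted p = 0.865) and the miRNA median at -0.77. The call of Rpl19 in that pair therefore held relative to miRNA and not relative to the positive controls. Vehicle culture exceeded control hearts in Actb (1.88, adjusted p = 0.00442) and B2m (1.56, adjusted p = 0.0210), 2 of 4 against 15.9% of features, with a miRNA median of 0.67.

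**Figure D2:**
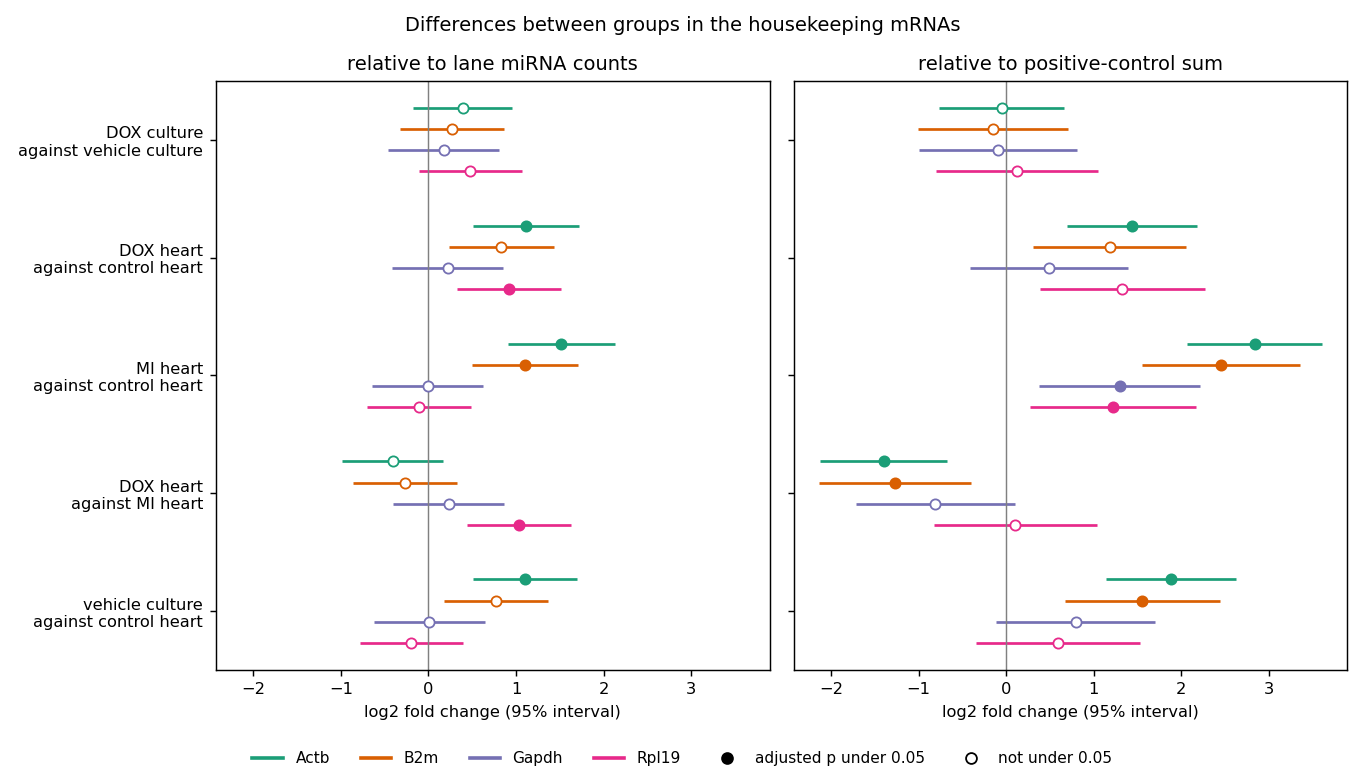
Log2 fold change of each mRNA (x axis, with 95% interval) for 5 comparisons (y axis), relative to lane miRNA counts on the left and to the positive-control sum on the right; filled points passed an adjusted p of 0.05. In MI hearts against control hearts the Gapdh and Rpl19 points move from near 0 on the left to 1.30 and 1.22 on the right.

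Ratios between the 4 mRNAs need neither scale, since both counts come from one lane. They were tested with the counts of 1 mRNA as library size across the other 112 features. Those features all share the noise of that mRNA's counts, so the spread pooled over them is not independent. The p-values of ratios can therefore be lower than 3 samples per group allow. Where groups do not overlap in a ratio, the share of features that separate likewise was not counted. B2m over Actb was the steadiest of the 6 ratios, between 2.55 and 5.80 in the 15 lanes (SD of log2 values 0.297). Its means were 5.08 ± 0.774 in control hearts, 4.32 ± 0.579 in DOX hearts, 4.04 ± 0.117 in vehicle culture, 3.77 ± 0.832 in MI hearts and 3.76 ± 1.07 in DOX culture. No comparison of it passed, and the difference among the 5 groups had an adjusted p of 0.558. The interval between MI and control hearts, -1.05 to 0.19, holds differences in both directions. With the mean negative control subtracted from each count, that comparison passed (-0.69, adjusted p = 0.0429).

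Gapdh over Actb was 26.8, 28.9 and 33.8 in control hearts (29.8 ± 3.58). It was 14.9, 13.3 and 21.0 in DOX hearts (16.4 ± 4.04), 13.4, 13.9 and 14.4 in vehicle culture (13.9 ± 0.499), 9.99, 8.45 and 20.1 in DOX culture (12.8 ± 6.32) and 9.13, 7.51 and 14.2 in MI hearts (10.3 ± 3.48). All control hearts lay above the 12 other samples. Actb itself was lowest in all control hearts. Of features over Actb, 57.1% passed in DOX hearts, 79.5% in MI hearts and 62.5% in vehicle culture, each against control hearts. The ratio was lower in MI hearts (log2 -1.54, SE 0.35, adjusted p = 0.00101), vehicle culture (-1.10, adjusted p = 0.0118) and DOX hearts (-0.86, adjusted p = 0.0422) than in control hearts. The last call was lost without any 1 of the 6 samples (adjusted p 0.0522 to 0.145) and with Gapdh as the library size (-0.91, adjusted p = 0.556). That of vehicle culture was also lost with Gapdh as the library size (-1.09, adjusted p = 0.206).

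Rpl19 over Actb split the groups into a high and a low set. It was 2.65, 3.52 and 3.80 in control hearts (3.32 ± 0.602) and 3.78, 2.56 and 2.82 in DOX hearts (3.05 ± 0.645). It was 1.31, 1.31 and 1.42 in vehicle culture (1.35 ± 0.0634), 1.36, 1.20 and 1.89 in DOX culture (1.48 ± 0.362) and 1.14, 0.757 and 1.30 in MI hearts (1.07 ± 0.280). No sample of the high set reached down to the low set. Over Actb, 79.5% of features passed in MI hearts and 62.5% in vehicle culture against control hearts. The share was 34.8% in DOX hearts against MI hearts. The ratio was lower in MI hearts than in control hearts (log2 -1.64, SE 0.31, adjusted p = 0.000274), higher in DOX hearts than in MI hearts (1.52, SE 0.31, adjusted p = 0.00160) and lower in vehicle culture than in control hearts (-1.30, SE 0.31, adjusted p = 0.00180). These 3 calls held without any 1 of the samples compared. DOX hearts and control hearts differed by -0.12 (95% interval -0.76 to 0.52, adjusted p = 0.713).

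Rpl19 over B2m was 0.621, 0.680 and 0.655 in control hearts (0.652 ± 0.0298), 0.792, 0.697 and 0.625 in DOX hearts (0.705 ± 0.0840) and 0.248, 0.201 and 0.442 in MI hearts (0.297 ± 0.128). MI hearts lay below both other groups of hearts (against control hearts log2 -1.14, adjusted p = 0.0309; DOX hearts against MI hearts 1.25, adjusted p = 0.0393). The first call was lost without any 1 control heart, MI heart 1 or MI heart 2 (adjusted p 0.0631 to 0.136), and the second without DOX heart 2, DOX heart 3, MI heart 1 or MI heart 2 (adjusted p 0.0709 to 0.210). Gapdh over B2m (1.84 to 6.28 over lanes) and Rpl19 over Gapdh (0.0917 to 0.254) gave no call in any pair of groups. The nearest was Gapdh over B2m in MI against control hearts (2.01-fold lower in the mean, adjusted p = 0.0524), which passed without MI heart 3 (-1.56, adjusted p = 0.00898) in DESeq2 (adjusted p = 0.0285), with the replicate number as a block (-1.11, adjusted p = 0.0371) and with only these 2 groups in the fit (adjusted p = 0.0124).

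In counts, 0 of the 6 ratios passed between DOX culture and vehicle culture and 0 for the difference of DOX responses (0 at an unadjusted p under 0.05 and 0 in DESeq2 in both cases). The numbers were 1 for DOX hearts against control hearts, 3 for MI hearts against control hearts, 2 for DOX hearts against MI hearts and 2 for vehicle culture against control hearts. These read against wide backgrounds, since the reference itself differed between groups. With Actb as library size 57.1%, 79.5%, 34.8% and 62.5% of features passed in those 4 comparisons, with B2m 30.4%, 54.5%, 22.3% and 41.1%, and with Gapdh 0%, 11.6%, 7.14% and 0.893%. In DOX culture against vehicle culture the shares were 2.68%, 9.82% and 8.04%, and for the difference of DOX responses 5.36%, 3.57% and 0.893%. Without the 3 least typical samples, the ratio counts in the order DOX culture against vehicle culture, DOX hearts, MI hearts and vehicle culture against control hearts, and DOX hearts against MI hearts were 1, 1, 4, 3 and 3. The shares of features that passed were then 43.8%, 84.8%, 90.2%, 82.1% and 58.9% over Actb, 33.9%, 41.1%, 67%, 50% and 35.7% over B2m, and 60.7%, 33.9%, 41.1%, 25% and 55.4% over Gapdh.

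**Figure D3:**
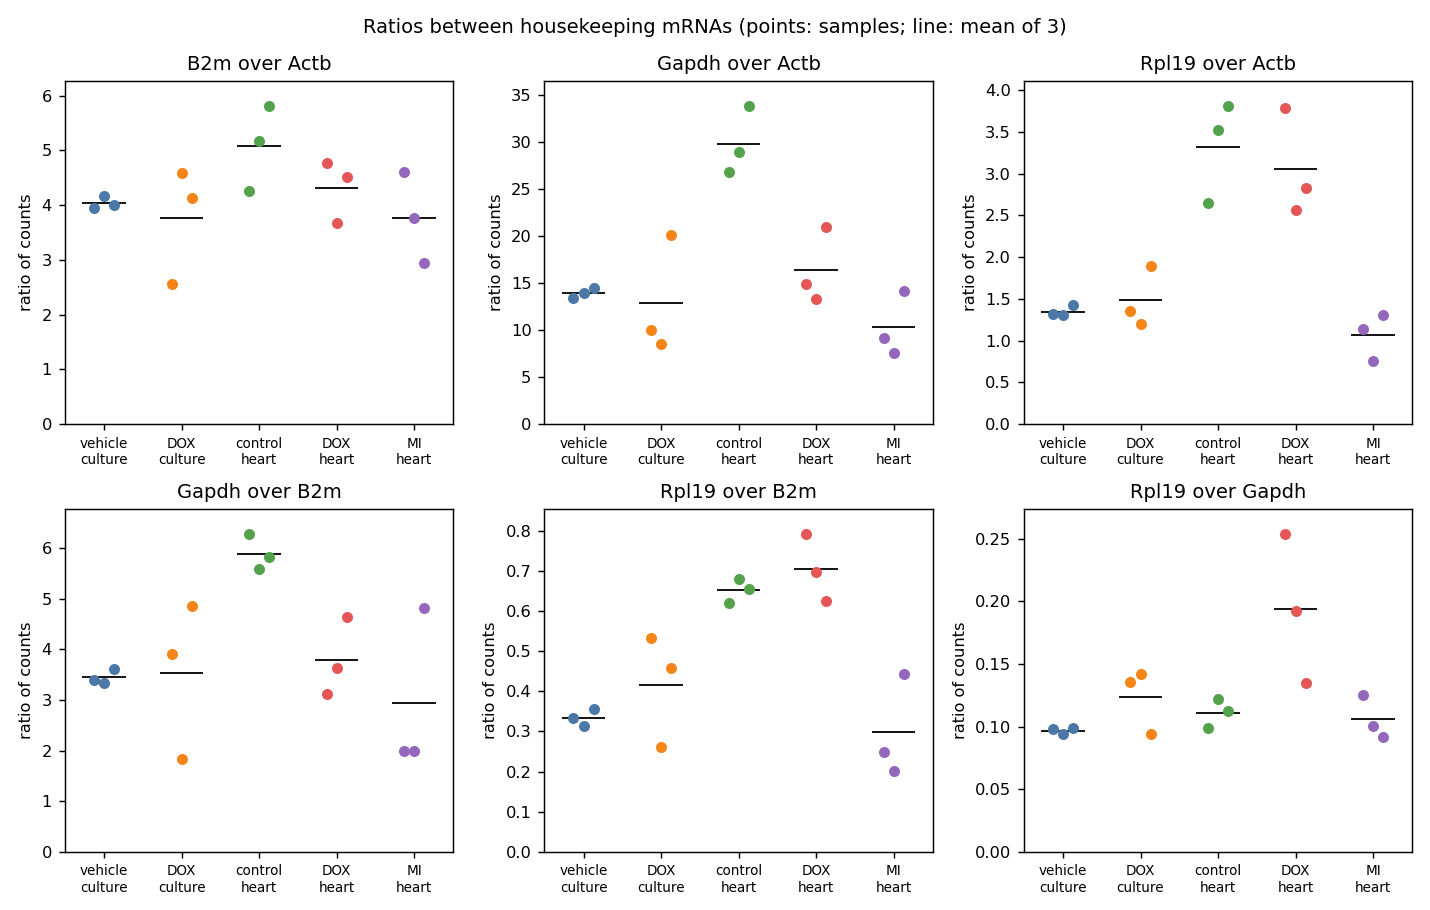
Ratio of the counts of 2 mRNAs (y axis, from 0) in each sample by group (x axis) for the 6 pairs; lines are means of 3 samples. Rpl19 over Actb splits control and DOX hearts (2.56 to 3.80) from the other 3 groups (0.757 to 1.89), and B2m over Actb stays between 2.55 and 5.80.

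Scaling lanes by 1 mRNA moves all miRNAs together, so each median below is close to that mRNA's own difference with the sign turned and is no further test of it. Between MI hearts and control hearts, the median log2 change of the 109 miRNAs was -0.03 with 17 higher and 24 lower when scaled by miRNA counts. Scaled by Actb it was -1.55 with 1 higher and 86 lower, and by B2m -1.06 with 3 higher and 57 lower. Scaled by Gapdh it was 0.07 with 8 higher and 4 lower, and by Rpl19 0.15 with 10 higher and 2 lower.

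In DOX hearts against control hearts, 5 miRNAs were higher and 1 lower when scaled by miRNA counts. The numbers were 0 and 63 with Actb, 0 and 34 with B2m, and 0 and 45 with Rpl19. With Gapdh none passed in either direction in edgeR, and 8 had an unadjusted p under 0.05. In DOX hearts against MI hearts the median was 0.57 with Actb, 0.27 with B2m, -0.11 with Gapdh and -1.07 with Rpl19.

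**Figure D4:**
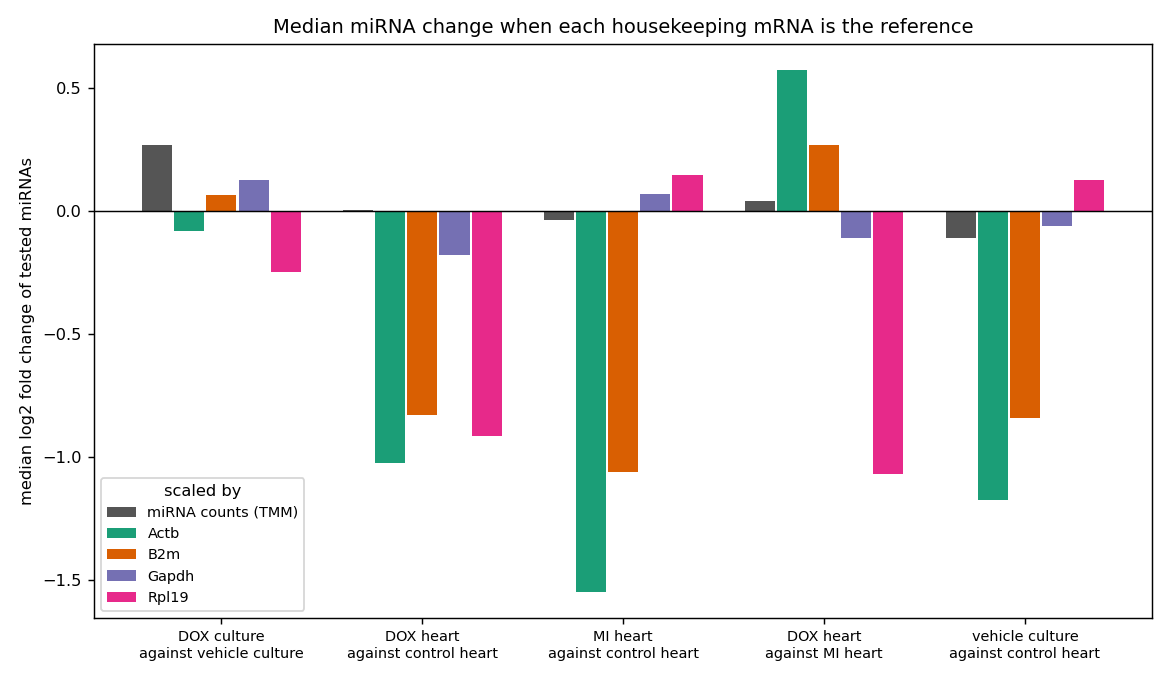
Median log2 fold change of 109 miRNAs (y axis) in 5 comparisons (x axis) when lanes are scaled by miRNA counts or by 1 of the 4 mRNAs (bar colour). Bars for Actb reach -1.55 in MI hearts against control hearts, while those for Gapdh stay between -0.18 and 0.13.

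Among the 62 probes above background in all 15 lanes, the SD over lanes of log2 CPM was 0.351 for Gapdh (rank 9 from the steadiest), 0.494 for B2m (rank 29), 0.507 for Rpl19 (rank 32) and 0.620 for Actb (rank 45). The median probe had 0.505, so Gapdh and, narrowly, B2m were steadier than it. From lowest to highest lane, Gapdh CPM spanned 2.27-fold, Actb 3.25-fold, B2m 3.46-fold and Rpl19 4.01-fold. Relative to the positive controls the SDs were 0.604 for Gapdh (rank 13), 0.642 for Rpl19 (rank 16), 0.883 for B2m (rank 40) and 0.994 for Actb (rank 45), against a median of 0.794. Judged against each other, by the mean SD of the log2 ratio to the other 3, the order changed to B2m 0.496, Gapdh 0.546, Actb 0.561 and Rpl19 0.592. The pooled SD within groups on the CPM scale was 0.299 for Actb, 0.324 for Rpl19, 0.348 for B2m and 0.399 for Gapdh. By the SD of log2 CPM, Gapdh had the widest scatter of the 4 inside groups and the narrowest over all lanes, and Actb the reverse. The pooled value of Actb includes the control hearts, whose coefficient of variation of 0.884% was below their counting error. The place of Actb as the narrowest inside groups was not examined without them. On the positive-control scale the SD within groups was widest for Rpl19 (0.527), next to Gapdh (0.516), B2m (0.462) and Actb (0.349).

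The miRNAs most like each mRNA were taken as those with the smallest SD over the 15 lanes of the log2 ratio of counts, among 58 miRNAs above background in every lane. Both counts of a ratio share a lane. For Actb they were miR-25 (0.370), miR-23a (0.378) and let-7e (0.389), against a median of 0.754 over the 58. For B2m they were miR-25 (0.325), miR-23a (0.406) and miR-151 (0.445), with a median of 0.680, so that miR-25 and miR-23a are shared with Actb. For Gapdh they were miR-99a (0.309), miR-1 (0.323), the abundant miRNA of striated muscle, and miR-100 (0.326), with a median of 0.623. For Rpl19 they were let-7d (0.319), miR-125b-5p (0.364) and miR-1 (0.405), with a median of 0.641.

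Mature sequences of 7 of these 9 miRNAs, from RefSeq (GRCr8), show which of them are seed relatives. Capitals mark the seed, bases 2 to 8. The panel names all but miR-125b-5p without an arm, and the arm shown is the one that the plain name is known to stand for.
rno-miR-25-3p: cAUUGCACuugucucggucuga
rno-miR-23a-3p: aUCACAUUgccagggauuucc
rno-let-7e-5p: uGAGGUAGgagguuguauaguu
rno-let-7d-5p: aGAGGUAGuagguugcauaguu
rno-miR-1-3p: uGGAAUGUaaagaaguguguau
rno-miR-100-5p: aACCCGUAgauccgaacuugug
rno-miR-125b-5p: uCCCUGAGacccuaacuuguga
Only the first listed location of each is given, and further copies in the genome were not looked for. In the order shown these are chr12:22156652-22156673 (minus strand), chr19:40859778-40859798 (minus), chr1:67350243-67350264 (plus), chr17:16322273-16322294 (plus), chr18:2160339-2160360 (minus), chr8:50798307-50798328 (plus) and chr11:29732588-29732609 (plus). Only let-7d and let-7e of the 7 share a seed, GAGGUAG, and they stand beside different mRNAs, Rpl19 and Actb. The seeds of miR-99a, which stands beside Gapdh with miR-100, and of miR-151 were not compared, as their sequences were not at hand. Seed relatives beside 1 mRNA could therefore be missed here.

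The cell type check used lists of marker miRNAs. All 5 miRNAs of the striated muscle list (miR-1, miR-133a, miR-133b, miR-208 and miR-499) were above background in every lane, and their summed level was 352362 to 354779 CPM in control hearts, 281067 to 295120 in vehicle culture, 221999 to 345509 in DOX culture, 252684 to 352363 in DOX hearts and 220316 to 312479 in MI hearts. The mean of miR-1, the largest part of this sum in every group, was 257582 CPM in DOX hearts and 255721 in control hearts. The means of the other members were lower in DOX hearts than in control hearts, with miR-133b at 1327 against 3379 CPM. The endothelial miR-126 was lowest where Actb and B2m were lowest, at 20104 to 22102 CPM in control hearts. It was 22364 to 39485 in DOX hearts, 66721 to 70808 in vehicle culture, 70925 to 92753 in DOX culture and 46623 to 131043 in MI hearts.

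The fibroblast list (miR-199a-3p, miR-199a-5p, miR-214 and miR-21, 3 of the 4 tested) summed to 4373 to 4734 CPM in control hearts, 9551 to 13398 in MI hearts, 6547 to 7210 in vehicle culture, 4458 to 6410 in DOX culture and 2758 to 4767 in DOX hearts. By group mean, miR-199a-3p was higher in DOX hearts than in control hearts (1010.5 against 568 CPM) and miR-21 lower (2159 against 3594). In DOX culture against vehicle culture, miR-199a-3p passed as higher (log2 0.69) and miR-21 as lower (-0.87). Of the leukocyte list, 5 of 6 were on the panel and 2 were tested, miR-146a and miR-150. The sum of this list was 5656 to 5868 CPM in control hearts, 13741 to 24383 in DOX hearts, 5361 to 17195 in MI hearts, 9968 to 10948 in vehicle culture and 8058 to 40180 in DOX culture. On the same list, miR-223 was below background in all lanes, and miR-142-3p and miR-142-5p were above it in 1 MI heart each. Both erythroid miRNAs on the panel, miR-451 and miR-144, were below background in every lane, at a sum of 96.1 to 365 CPM. The smooth muscle sum (miR-143 and miR-145) was 52586 to 60285 CPM in control hearts, 54900 to 104746 in DOX hearts, 46881 to 62628 in MI hearts, 46348 to 50709 in vehicle culture and 47501 to 98692 in DOX culture. Its members went apart in the mean from control hearts to DOX hearts, miR-145 from 53646 to 77582 CPM and miR-143 from 2630 to 1248.

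Between MI hearts and control hearts, where Actb and B2m rose, the endothelial miRNA, 3 of 3 fibroblast miRNAs and 1 of 2 leukocyte miRNAs (miR-146a) were higher and 2 of 5 muscle miRNAs lower. Between vehicle culture and control hearts, where Actb rose, the endothelial miRNA, 2 of 3 fibroblast and 1 of 2 leukocyte miRNAs (miR-146a) were higher. Between DOX hearts and control hearts, where Actb and Rpl19 rose, none of the endothelial, fibroblast, smooth muscle or leukocyte miRNAs passed and 1 of 5 muscle miRNAs was lower. Nearest the threshold among those that missed it were miR-143 (log2 -1.06, adjusted p = 0.0518), miR-150 (1.91, adjusted p = 0.0699) and miR-199a-3p (0.83, adjusted p = 0.0699). Between DOX hearts and MI hearts, where Rpl19 was higher, 3 of 3 fibroblast miRNAs, the endothelial miRNA, 1 of 2 smooth muscle and 1 of 2 leukocyte miRNAs (miR-146a) were lower and 1 of 5 muscle miRNAs higher in DOX hearts. The part of other cell types in the levels of the 4 mRNAs was not tested.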

How the data were processed

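The authors deposited a workbook of lane counts per probe. The first sheet holds barcode counts without normalization, per the file headers; they are whole numbers and were handled in the way of estimated counts because the deposited block also holds decimal lane attributes. Its 60 housekeeping values equal those of the sheet of counts the authors corrected for background. The third deposited sheet holds signal, equal to the count times 18168.8 over the lane's positive-control sum. The fourth holds signal scaled again by the miRNA sum, with lane factors of 0.535 to 2.06 for all 420 miRNAs; the 4 housekeeping rows there equal those of the third sheet in 60 of 60 values and carry no such factor. The authors' tables of group comparisons were not used here.

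Features above the lane background in at least 3 lanes were tested with edgeR 4.0.16 (R 4.3.3; glmQLFit, robust, all 15 samples, 1 mean per group). Alternatives used limma 3.58.1 (log2 of deposited signal, pseudocount 1), DESeq2 1.42.0, other scalings and filters, background subtraction, fewer samples and the replicate number as a block. The scripts were tested on simulated data. Named genes were all 4 mRNAs, the 3 miRNAs most like each, and the marker miRNAs; members and lists were chosen with earlier results of these data known. Counting error alone is 13.1% to 17.1% for the lowest counts. Columns of other samples numbered 0.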

Additional observations from a re-analysis of the deposited data

How the results depend on the processing

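Under the alternatives run, the calls of Actb in MI hearts against control hearts and of Rpl19 over Actb in MI hearts against control hearts kept their direction and stayed past the threshold, with every omission of 1 sample included. The number of mRNAs called in DOX hearts against control hearts was 2. It became 1 with positive-control scaling, with the miRNA sum without TMM and with background subtracted. It was also 1 with limma on the authors' positive-control-normalized values and with the replicate number as a block. With DESeq2, DESeq2 size factors, probes above background in all lanes and limma on the authors' miRNA-sum sheet it was 3. There B2m also passed (adjusted p = 0.00972, 0.0416, 0.0396 and 0.0431). The number was 4 without the 3 least typical samples. The 4 mRNAs hold the same values on both of these sheets, scaled by the positive controls and not by miRNA counts. Limma on either sheet, here and below, is thus positive-control scaling. With that scaling in edgeR, B2m did not pass in DOX hearts against control hearts (adjusted p = 0.0975). In MI hearts against control hearts the number of mRNAs called was 2 and became 4 with positive-control scaling, in edgeR and in limma on either deposited sheet. In DOX hearts against MI hearts it was 1 and became 2 with positive-control scaling, with limma on either sheet and without the 3 least typical samples, and 0 without a filter. In vehicle culture against control hearts it was 1 and became 2 with positive-control scaling, DESeq2 size factors, DESeq2, no filter, limma on either sheet, without the 3 least typical samples and with only the groups compared. Without the 3 least typical samples it went from 0 to 3 in DOX culture against vehicle culture and from 0 to 1 for the difference of DOX responses. The number of ratios called became 0 in DOX hearts and 1 in vehicle culture against control hearts with the other mRNA as library size, 4 in vehicle culture against control hearts and 1 in DOX hearts against MI hearts with only the groups compared, and 1 in DOX culture against vehicle culture without the 3 least typical samples. In MI hearts against control hearts the ratio count went from 3 to 4 with DESeq2, the replicate block, background subtracted, only the groups compared and without the 3 least typical samples. The count of mRNAs that differed among the 5 groups was 3 and became 2 with positive-control scaling, no filter, probes above background in all lanes, background subtracted and limma on the positive-control sheet, 4 without the 3 least typical samples, and 2 to 3 when each sample was left out in turn. Leaving out each sample in turn gave 0 to 3 mRNAs in DOX hearts and 1 to 2 in MI hearts against control hearts, 0 to 1 in DOX hearts against MI hearts and 0 to 1 in vehicle culture against control hearts, and 0 to 0 ratios in DOX hearts against control hearts and 1 to 2 in DOX hearts against MI hearts. The cause of these shifts was not tested.

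Reversed directions concerned values that had not passed, and some passed once reversed. In DOX culture against vehicle culture, positive-control scaling, no filter and limma on either sheet gave -0.053, -0.19 and -0.056 for Actb, -0.15, -0.30 and -0.20 for B2m and -0.090, -0.35 and -0.28 for Gapdh. Gapdh was also at -0.027 with DESeq2 size factors, -0.027 with DESeq2 and -0.050 without the 3 least typical samples, and Rpl19 at -0.078 without a filter. In MI hearts against control hearts, positive-control scaling, DESeq2 size factors, DESeq2, no filter and limma gave 1.30, 0.12, 0.12, 0.60 and 1.23 for Gapdh and 1.22, 0.0080, 0.0028, 0.50 and 1.15 for Rpl19, and Gapdh was at 0.058 without TMM. Of these, the values with positive-control scaling passed (adjusted p = 0.0212 for Gapdh and 0.0314 for Rpl19), as did those with limma on the positive-control sheet (0.0219 and 0.0303) and on the miRNA-sum sheet (0.0188 and 0.0234). In DOX hearts against MI hearts, Gapdh was at -0.81 with positive-control scaling, -0.23 without a filter and -0.76 with limma. In vehicle culture against control hearts, Rpl19 was at 0.59, 0.030, 0.028, 0.49 and 0.58 under the settings listed for MI hearts, and Gapdh at -0.060 with background subtracted and -0.0025 with the block. The difference of DOX responses of Gapdh was -0.12 with background subtracted. Of the ratios, Gapdh over B2m in DOX culture against vehicle culture was -0.20 with the other mRNA as library size, -0.039 with the block and -0.26 without the 3 least typical samples. Without those samples Rpl19 over Actb in the same pair was -0.075, Rpl19 over Gapdh in MI hearts against control hearts 0.016 and B2m over Actb in DOX hearts against MI hearts -0.031.

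Omitting 1 sample at a time, differences in DOX culture against vehicle culture ran from -0.033 to 0.43 for B2m, -0.050 to 0.33 for Gapdh, -0.26 to 0.35 for Gapdh over B2m, -0.075 to 0.27 for Rpl19 over Actb, -0.27 to 0.11 for B2m over Actb and -0.59 to 0.11 for Gapdh over Actb. In MI hearts against control hearts they ran from -0.29 to 0.23 for Gapdh, -0.26 to 0.15 for Rpl19 and -0.21 to 0.020 for Rpl19 over Gapdh. In DOX hearts against MI hearts they ran from -0.0041 to 0.52 for Gapdh and -0.44 to 0.014 for B2m, and in vehicle culture against control hearts from -0.15 to 0.13 for Gapdh. For the difference of DOX responses they ran from -0.11 to 0.29 for Gapdh, -0.35 to 0.040 for B2m over Actb and -0.46 to 0.0056 for Rpl19 over B2m.

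The replicate numbers are shared by the groups only as numbers. Over 30 same-numbered pairs, correlations of deviations from group means ran from -0.647 to 0.696 (median 0.042), 11 of them over 0.1. Over 60 differently numbered pairs they ran from -0.762 to 0.744 (median -0.0068), 18 of them over 0.1. The ranges were alike, so the numbers were not taken as pairing. With the replicate block, Rpl19 in DOX hearts against control hearts was at 0.94 (adjusted p = 0.0561) and 1 of 4 mRNAs passed. Depth limits Actb most, since 34 counts carry a 95% Poisson interval of 23.5 to 47.5.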
